A study of Mus musculus with 18 samples.

Results

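Natural killer cells are lymphocytes that kill infected or transformed cells without prior priming, and the lung holds many of them. Their activity is set by a balance of germline-encoded surface receptors. Inhibitory receptors mostly recognise class I major histocompatibility molecules on healthy cells, and activating receptors recognise stress-induced, viral or altered ligands and signal through adaptors such as DAP12 and DAP10. The 10 genes described here encode such receptors: the Ly49 receptors Klra4, Klra7 and Klra8, the cadherin receptor Klrg1, the CD94/NKG2 family members Klrd1, Klrc1 and Klrk1, the lectin-like Klre1, NK1.1 (Klrb1c) and NKp46 (Ncr1). They were measured by all array probes whose RefSeq accession belongs to one of these genes, which gave 15 probes out of 55681 and 10 genes out of 20660 named on the array. The genes were chosen by their results in the dose comparisons of these arrays, so their changes with dose are a description and carry no test.

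The mice were adult males of the Muta™Mouse (a transgenic strain on a BALB/C-DBA/2 background, about 12 weeks old), gavaged daily for 28 days with the 4PAH-Mix. This mixture holds the polycyclic aromatic hydrocarbons benzo[a]pyrene, benz[a]anthracene, benzo[b]fluoranthene and chrysene in olive oil. Lungs of 5 mice that received olive oil alone (vehicle), 4 mice at 12.5 (low dose), 5 at 25 (medium dose) and 4 at 50 (high dose) mg BaP equivalents/kg-bw/day were taken 72 h after the last dose, with 1 array per mouse. All mice, the vehicle group included, carry the transgene. Lung RNA was labelled with Cy5 and a reference RNA pooled from 11 mouse cell lines with Cy3, without dye swap. Each value is therefore the log2 ratio of lung to reference for 1 probe, and the levels of different genes are not set against each other.

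Of the 10 genes, 9 lie on mouse chromosome 6 in the natural killer gene complex, in the order Klrg1, Klrb1c, Klre1, Klrd1, Klrk1, Klrc1, Klra4, Klra8 and Klra7, and Ncr1 lies on chromosome 7. The Ly49 genes arose by repeated duplication, their number differs between inbred strains, and BALB/c mice are known to lack the Ly49H receptor that Klra8 encodes in C57BL/6 mice. How alike the copies are can be seen in the 250 bases before their transcription start, taken from RefSeq's table for GRCm38.p6, which is the C57BL/6J genome and not the strain measured. They are shown as an example of the likeness between copies. These bases lie before the transcript, so they do not show what a probe binds. No transcript or probe sequences were compared. Each line is on the minus strand, written 5′ to 3′. In the line of Klra4, capitals mark bases that differ from Klra8 or have no partner there in a global alignment. In the lines of Klra8 and Klra7 they mark bases that differ from Klra4.
Klra4 (chr6:130067272-130067521): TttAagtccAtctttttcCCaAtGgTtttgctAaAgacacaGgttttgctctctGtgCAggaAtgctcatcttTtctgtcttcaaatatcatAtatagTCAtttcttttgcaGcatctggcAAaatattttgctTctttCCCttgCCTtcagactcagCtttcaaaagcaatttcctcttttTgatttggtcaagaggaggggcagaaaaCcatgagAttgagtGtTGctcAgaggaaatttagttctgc
Klra8 (chr6:130129899-130130148): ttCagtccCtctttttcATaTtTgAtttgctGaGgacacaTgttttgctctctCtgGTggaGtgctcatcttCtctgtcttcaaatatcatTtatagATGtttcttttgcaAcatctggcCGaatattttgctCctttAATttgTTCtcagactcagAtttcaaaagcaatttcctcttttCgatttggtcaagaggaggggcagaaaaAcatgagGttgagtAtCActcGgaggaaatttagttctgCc
Klra7 (chr6:130233323-130233572): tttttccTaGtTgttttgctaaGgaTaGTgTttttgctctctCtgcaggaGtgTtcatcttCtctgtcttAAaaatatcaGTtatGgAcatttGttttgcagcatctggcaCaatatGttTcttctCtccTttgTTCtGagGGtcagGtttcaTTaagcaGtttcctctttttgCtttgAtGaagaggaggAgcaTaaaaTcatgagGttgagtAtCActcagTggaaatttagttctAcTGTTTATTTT
Over these 250 bases Klra8 matched Klra4 at 84.8% of positions and Klra7 matched it at 77.6%, whereas the window of Ncr1, a gene of another family aligned the same way, matched at 50.8%. These are the best matching of the 2 start windows listed for each of these 3 genes, and the other windows of Klra8 and Klra7 matched at 65.2% and 51.2%. Which Ly49 transcripts of this strain bind the probes for Klra4, Klra7 and Klra8 was not tested, and the values of these genes are uncertain in that respect.

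A promoter window was at hand for 8 of the 10 genes, all but Klrd1 and Klrg1. RUNX factors, which take part in natural killer cell development, recognise the letters TGTGGT. Read on both strands, these letters were found in the 250 bases before a start of 5 of the 8 genes (Klrb1c, Klrc1, Klre1, Klrk1 and Ncr1). They were in 14.0% of all 32851 windows in the table. A gene was counted if any of its start windows held the letters, whereas the share of all is per window, so these numbers are in unlike units. The window of Ncr1 on the plus strand is shown because it holds the letters at 2 places, which begin 176 and 41 bases before the start (capitals).
Ncr1 (chr7:4337465-4337714): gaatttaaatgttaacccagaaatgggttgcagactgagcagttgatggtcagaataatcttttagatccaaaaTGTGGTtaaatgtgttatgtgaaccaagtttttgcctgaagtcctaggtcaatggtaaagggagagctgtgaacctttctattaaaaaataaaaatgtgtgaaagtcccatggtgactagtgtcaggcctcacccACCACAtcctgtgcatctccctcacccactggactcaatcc
The T-box letters GGTGTG, which T-bet and Eomes recognise, were in 0 of the 8 genes' windows and in 16.3% of all windows. The NFIL3 letters TTACGTAA or TTATGTAA were also in 0 of the 8, against 0.931% of all windows. Such matches describe letters in a window and say nothing about binding in these lungs.

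Most of these receptors gave a dim signal in whole lung. On their brightest probes, Klra4 and Klrd1 were well above background in Cy5 on all 18 arrays, and Klra7, Klra8 and Klrg1 on all arrays of at least 1 group. Klrb1c was well above background on 13 arrays, Ncr1 on 14, Klre1 on 6, Klrc1 on 1 and Klrk1 on 0. The Cy5 median intensity of the Klra8 probe ran from 93 to 278.5 over a local background of 69 to 81, and that of the Klrk1 probe from 72 to 99 over 69 to 81. Klra4 was also well above background in the reference channel on every array, which the other 9 genes were not. Its log2 ratio was negative in all 18 mice.

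**Figure D1:**
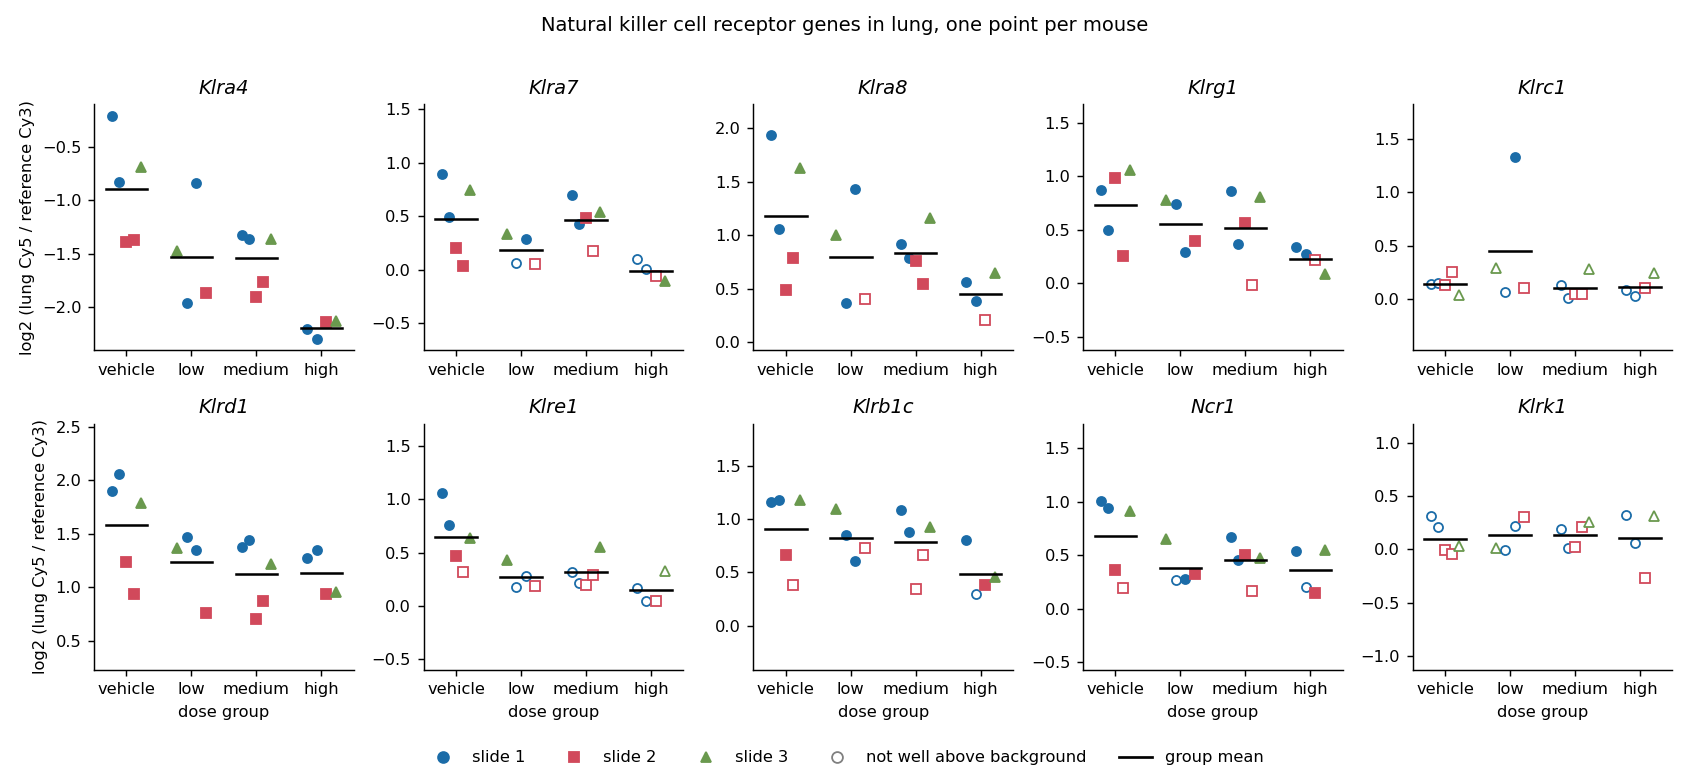
Log2 ratio of lung (Cy5) to reference RNA (Cy3) for the brightest probe of each of the 10 receptor genes, 1 point per mouse by dose group, with shape and colour for the slide, open points where the probe was not well above background, and a line at the group mean. For Klra4 the 4 high-dose mice sit between -2.29 and -2.12, below all 5 vehicle mice, while Klrk1 is open in every mouse and Klrc1 is filled in 1.

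In C57BL/6 mice Klra4 encodes the activating receptor Ly49D, which signals through DAP12. Whether the strain measured carries this gene was not tested. The probe named for Klra4 was lower at every dose than in the vehicle group and lowest at the high dose. In the vehicle mice 1 to 5 its log2 ratio was -0.21, -0.83, -1.39, -1.37 and -0.69. In the high-dose mice 16, 17, 18 and 20 it was -2.20, -2.29, -2.13 and -2.12. The high-dose values lay close together and below those of every other mouse. In the low-dose mice 6, 7, 9 and 10 the ratio was -1.96, -0.84, -1.86 and -1.47, and in the medium-dose mice 11 to 15 it was -1.32, -1.36, -1.90, -1.76 and -1.36. Both of these groups overlapped the vehicle group and each other. The group means ± SD were -0.90 ± 0.50 (vehicle, n = 5), -1.53 ± 0.51 (low, n = 4), -1.54 ± 0.27 (medium, n = 5) and -2.19 ± 0.08 (high, n = 4). Over vehicle this gave log2 fold changes of -0.63 ± 0.22 (SE, low), -0.64 ± 0.21 (medium) and -1.29 ± 0.22 (high), and the high dose lay -0.66 ± 0.23 from the low dose. Klra4 was the 1 receptor gene called at the high dose (adjusted p of at most 0.05 and a fold of at least 1.5), where 0.805% of all probes were called lower. In whole lung, fewer natural killer cells and less receptor RNA per cell cannot be told apart. Median centring in place of loess ended that call, with a fold change of -1.10. Within slides 1, 2 and 3 the high-dose difference from vehicle was -1.73, -0.75 and -1.43.

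Klra8, the gene of the activating receptor Ly49H, and Klra7, the gene of the inhibitory receptor Ly49G, were lower at the high dose with overlap between the groups. For Klra8 the log2 ratio was 1.94, 1.06, 0.49, 0.78 and 1.62 in vehicle mice 1 to 5 and 0.56, 0.39, 0.21 and 0.65 in high-dose mice 16, 17, 18 and 20. Vehicle mouse 3 lay among the high-dose mice, and the other 4 vehicle mice lay above them. From the low to the high dose, Klra8 had log2 fold changes of -0.38 ± 0.24 (SE), -0.35 ± 0.23 and -0.73 ± 0.24. For Klra7 the ratio was 0.90, 0.50, 0.21, 0.04 and 0.75 in the vehicle mice and 0.10, 0.00, -0.06 and -0.10 in the high-dose mice. Only vehicle mouse 4 fell within the high-dose range. Klra7 had log2 fold changes of -0.29 ± 0.14, -0.01 ± 0.13 and -0.49 ± 0.14, with the medium dose near the vehicle. Its probe was well above background in 5 of 5 vehicle, 2 of 4 low-dose, 4 of 5 medium-dose and 1 of 4 high-dose mice, so the low- and high-dose values lie close to background. A second probe of Klra8 was well above background on 15 arrays and gave -0.35, -0.34 and -0.52 at the same doses. The third probe of Klra8 and both further probes of Klra7 were well above background on at most 2 arrays, and their changes at the high dose lay between -0.13 and -0.01.

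Klrg1, an inhibitory receptor for cadherins found on mature natural killer and effector T cells, was lower at the high dose. Its log2 ratio was 0.87, 0.50, 0.98, 0.26 and 1.06 in vehicle mice 1 to 5 and 0.34, 0.28, 0.22 and 0.09 in the high-dose mice. Vehicle mouse 4 fell among the high-dose mice and the other 4 vehicle mice lay above them. Its log2 fold changes from the low to the high dose were -0.18 ± 0.17 (SE), -0.22 ± 0.16 and -0.51 ± 0.17.

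Klrd1 encodes CD94, the chain that pairs with the NKG2 receptors. Its log2 ratio was 1.90, 2.06, 1.23, 0.93 and 1.78 in vehicle mice 1 to 5. It was 1.47, 1.35, 0.76 and 1.36 in low-dose mice 6, 7, 9 and 10, 1.37, 1.44, 0.70, 0.87 and 1.22 in medium-dose mice 11 to 15, and 1.27, 1.35, 0.94 and 0.95 in high-dose mice 16, 17, 18 and 20. Each of the 3 dose groups took in the value of vehicle mouse 3, and none reached vehicle mice 1, 2 and 5. Relative to vehicle, Klrd1 differed by -0.35 ± 0.20 (SE), -0.46 ± 0.19 and -0.45 ± 0.20 from the low to the high dose, without an order by dose.

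The partner chain NKG2A, encoded by Klrc1, was well above background in 1 of the 18 mice, low-dose mouse 7, at a log2 ratio of 1.33. In the other 3 low-dose mice the ratio was 0.07, 0.10 and 0.30, and over all other groups it ran from 0.02 to 0.28. Without mouse 7 the log2 fold change at the low dose went from 0.31 to 0.01. Mouse 7 had the highest Klra4 and Klra8 ratios of its group and the lowest Klrb1c and Klrg1 ratios (0.61 and 0.29). The local Cy5 background at its Klrc1 spot was 97, the highest of the 18 arrays, so this signal is uncertain. Klrk1, the gene of the activating receptor NKG2D, was not well above background on any array, so no fold change is given for it.

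Klre1, whose product pairs with the Klri chains, was detected mainly in vehicle mice. The probe was well above background in 4 of 5 vehicle, 1 of 4 low-dose, 1 of 5 medium-dose and 0 of 4 high-dose mice. The log2 ratio was 1.06, 0.75, 0.47, 0.32 and 0.64 in the vehicle mice and 0.16, 0.05, 0.05 and 0.33 in the high-dose mice, where the highest overlapped vehicle mouse 4. Since the high-dose values were not well above background, the level in the vehicle group was at least 1.33-fold higher than at the high dose.

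NKp46 (Ncr1) and NK1.1 (Klrb1c), the surface markers by which mouse natural killer cells are usually sorted, overlapped between the vehicle and high-dose groups. Ncr1 had a log2 ratio of 1.01, 0.94, 0.36, 0.19 and 0.91 in the vehicle mice, 0.26, 0.28, 0.32 and 0.65 in the low-dose mice, and 0.54, 0.20, 0.15 and 0.55 in the high-dose mice. Vehicle mice 1, 2 and 5 lay above all high-dose mice and vehicle mice 3 and 4 lay among them. The log2 fold changes of Ncr1 were -0.30 ± 0.15 (SE), -0.23 ± 0.14 and -0.32 ± 0.15. Klrb1c had a ratio of 1.16, 1.18, 0.66, 0.38 and 1.17 in the vehicle mice and 0.80, 0.30, 0.38 and 0.46 in the high-dose mice, again with vehicle mice 3 and 4 inside the high-dose range. Its log2 fold change was -0.09 ± 0.17 (SE), -0.13 ± 0.16 and -0.42 ± 0.17. A second Klrb1c probe was not well above background on any array. The antibody epitope of NK1.1 is absent from BALB/c and DBA/2 mice, and the array measured RNA only.

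**Figure D2:**
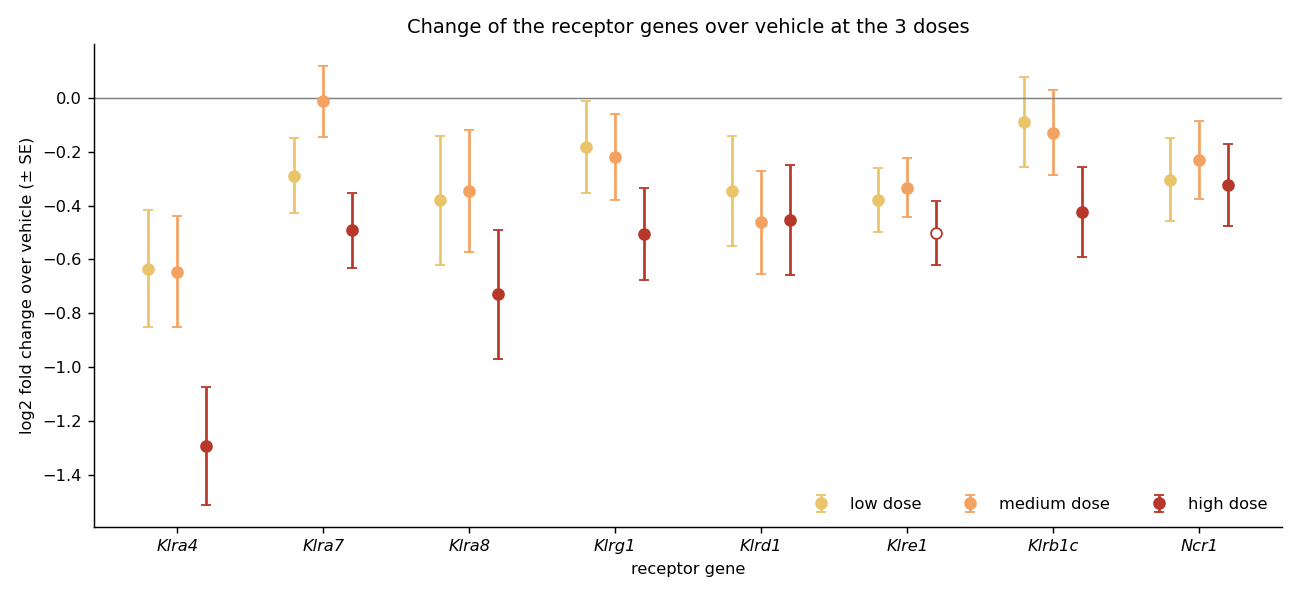
Log2 fold change over vehicle with its SE for 8 receptor genes (x axis) at 3 doses, from 1 fit of all 18 arrays; Klrc1 and Klrk1 are left out because at most 1 array detected them. Klra4 is at -1.29 at the high dose, and the open point of Klre1 marks a group in which its probe was not well above background.

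By the same rule for calls, 0 of the 10 genes were called at the low dose, 0 at the medium dose, 1 at the high dose and 0 between the high and the low dose. Of all probes, 0.0251%, 0.447%, 0.805% and 0.00898% were called lower in these comparisons. Every high-dose mouse lay below every vehicle mouse for 1 of the 10 genes, Klra4, and for 4.33% of all probes, while at the low and medium dose this held for 0 of the 10 genes and for 1.46% and 2.05% of all probes. Because the genes were chosen by these comparisons, nothing is read from these counts. The median log2 fold change of the 10 genes was -0.30 (low), -0.23 (medium) and -0.47 (high), against medians of all probes at 0.00. Of the 10 genes, 8, 9 and 9 had values below 0, and the 10 include Klrc1 and Klrk1, which were hardly detected. The ratios given by the scanner software, which are background-subtracted, put the high-dose median at -1.06 and called Klre1 beside Klra4. With them 1075 of 55681 probes were called at the high dose, against 670 with loess. On the scanner scale the high-dose fold change was -2.07 ± 0.38 (SE) for Klra4, -1.78 ± 0.60 for Klra8 and -1.72 ± 0.51 for Klra7. It was -1.12 ± 0.58 for Klrg1 and -2.52 ± 0.48 for Klre1. Klre1 was well above background in 0 of 4 high-dose mice and Klra7 in 1 of 4, so the size of their change is uncertain. The low-dose fold change of Klra8 on the scanner scale was -1.30 ± 0.60 (SE), and the medium-dose one -0.75 ± 0.57. The 3 doses share the same vehicle mice.

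Receptor levels were also compared between slides, a measure that did not enter the choice of genes, and differed past the test for 1 gene, Klrd1. All 4 groups were present on each of the 3 slides, and slide 2 carried vehicle mice 3 and 4, low-dose mouse 9, medium-dose mice 13 and 14 and high-dose mouse 18. With the dose groups in the fit, slide 2 lay below slide 1 for the 8 genes detected on more than 1 array, with differences from -0.66 (Klrd1) to -0.17 (Klrg1) on the log2 scale. For Klrd1 the mean ratio was 1.53 on slide 1, 0.90 on slide 2 and 1.33 on slide 3, and its slide term passed limma's F test after Benjamini-Hochberg adjustment over all probes (adjusted p = 0.00289). The next lowest adjusted p from limma's F test was 0.0621 for Klrb1c, with a difference of -0.37 between slide 2 and slide 1. The slide term was called for 1 of the 10 genes and for 2.73% of all probes. Whether mice or hybridization differed between slides cannot be told apart, since each mouse was on 1 slide.

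With the slide as a block, the medium-dose differences and those between the high and the low dose had the same size as without it, the low- and high-dose differences of the 8 genes detected on more than 1 array were slightly larger, and the SE was smaller for most genes. Klra4 was then called at the medium dose (-0.64 ± 0.17, against ± 0.21 without the block) as well as at the high dose (-1.36), and Klra8 was called at the high dose (-0.81). Vehicle mice 3 and 4, both on slide 2, had the lowest ratios of their group for 8 of the 10 genes, Klrk1, which was never well above background, among them. Without vehicle mouse 3 Klra4 and Klra8 were called at the high dose and Klra4 at the medium dose, and without vehicle mouse 4 Klra4, Klra7 and Klrg1 were called at the high dose. Without low-dose mouse 7 Klra4 was called at the medium dose. In all, 630 probes at the high and 391 at the medium dose were called without vehicle mouse 3. Without vehicle mouse 4 this was 676 at the high dose, and without low-dose mouse 7 it was 406 at the medium dose. Because the genes were chosen by the dose comparisons, nothing is read from these further calls.

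To follow the mice 1 by 1, the log2 ratios of the 5 genes detected in every mouse of a group (Klra4, Klra7, Klra8, Klrd1 and Klrg1) were averaged after setting each gene's vehicle mean to 0. Klra7 passed this limit through the vehicle group alone. The mean profile was 0.46, 0.04, -0.31, -0.49 and 0.29 in vehicle mice 1 to 5, and -0.48, -0.11, -0.66 and -0.21 in low-dose mice 6, 7, 9 and 10. It was -0.11, -0.28, -0.50, -0.65 and -0.14 in medium-dose mice 11 to 15 and -0.60, -0.67, -0.78 and -0.72 in high-dose mice 16, 17, 18 and 20. The SD was 0.40 in the vehicle and 0.08 in the high-dose group, where Klra7 was well above background in 1 of 4 mice and Klra8 and Klrg1 in 3 of 4, so the spread of these groups is not compared. The low- and medium-dose groups were at -0.37 ± 0.25 and -0.34 ± 0.23. On each slide the high-dose mean was lowest and the vehicle mean highest: 0.25 and -0.64 on slide 1, -0.40 and -0.78 on slide 2, and 0.29 and -0.72 on slide 3. For the low and high dose on slide 2, and for every group on slide 3, this mean is 1 mouse. Since the genes were chosen by the dose results, nothing is read from this order. Pearson's r between the 10 pairs of these 5 genes ran from 0.48 to 0.90 over the 18 arrays, with a median of 0.65. Over deviations from the group means it ran from 0.15 (Klra4 and Klrg1) to 0.90 (Klra4 and Klra8) with a median of 0.62. These correlations are a description over arrays that share slides and normalization, and Ly49 probes may share transcripts.

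**Figure D3:**
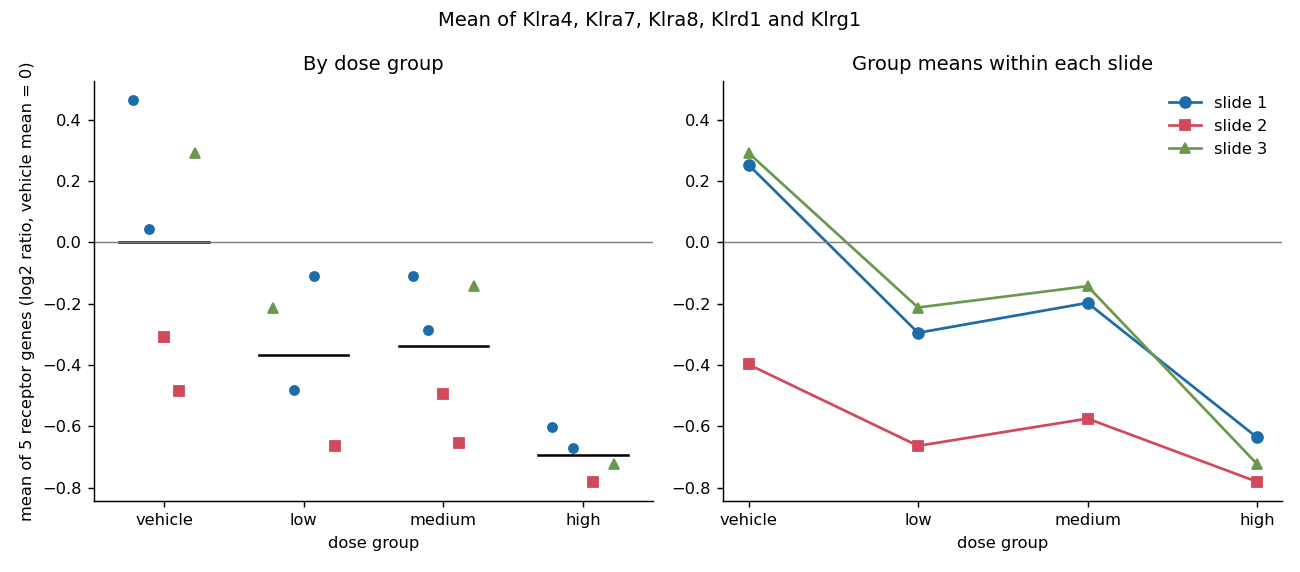
Mean of 5 receptor genes per mouse by dose group (left, y axis in log2 ratio with the vehicle mean at 0, line at the group mean) and the group means within each slide (right). On slide 3, and for the low and high dose on slide 2, such a mean is 1 mouse. Slide 2 runs below the other slides in every group, and at the high dose all mice lie between -0.78 and -0.60.

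The ratios of 14362 other genes detected in every mouse of a group were set against this profile. Over the 18 arrays the highest Pearson's r were those of the Ly49 gene Klra16 (0.95), of the granule protease gene Gzma (0.91) and of Nkg7 (0.89), a granule protein of killer cells. They were followed by Ppp1r14a, Ccl5, Gjb1, Pcdhga10 and Syt15, all at 0.83 to 0.84. Over deviations from the group means, which leave out dose, the order was Pon1 (0.92), Ces1e (0.91), Kti12 (0.90), Nkg7 (0.90) and Klra16 (0.89). The first 3 of these did not follow dose, with log2 fold changes at the high dose between -0.04 and 0.05. These genes were picked out of many, and their r describes these 18 arrays.

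The other genes of natural killer cells were taken from lists written with earlier results of these data known. Of 27 other killer cell lectin-like receptors listed, 16 could be matched by name to a probe, and the rest were not examined. Among the 16, 1 was called, Klra16 at the high dose. The study's own gene list for this mixture also holds Klra22 as lower at the high dose, a gene outside the 16. The log2 ratio of Klra16 had a lowest, median and highest value of -0.82, 0.08 and 0.59 in the vehicle group. In the high-dose group these were -1.44, -1.32 and -1.18, without overlap. Klra16 fell by 1.20 ± 0.23 (SE, limma adjusted p = 0.00288) on the log2 scale. Whether this probe and that of Klra4 read different Ly49 transcripts was not tested. The median of the 16 genes was -0.11 at the high dose, with 12 below 0.

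At the high dose, the effector genes held 3 of the 5 calls among these other lists. Of 14, the low and medium dose each had 1 called and the high dose had 3, all lower, and 12 of 14 had values below 0 at the high dose, with a median of -0.25. Gzma, which encodes granzyme A, had a log2 ratio of 3.75, 4.95 and 5.46 (lowest, median, highest) in the vehicle and 1.70, 2.66 and 3.08 in the high-dose mice, a log2 fold change of -2.25 ± 0.41 (limma adjusted p = 0.00208). Ccl5, a chemokine made by killer and T cells, fell at each dose, with log2 fold changes of -1.01 ± 0.19, -0.92 ± 0.18 and -1.54 ± 0.19 (limma adjusted p = 0.0307, 0.00595 and 5.28e-05). The call of Ccl5 at the low dose was lost without any 1 of vehicle mice 1, 2, 3 and 5 or of low-dose mice 6, 9 and 10 (limma adjusted p between 0.0696 and 0.127). Ccl4, a related chemokine, fell by 0.76 ± 0.18 at the high dose (limma adjusted p = 0.016), a call that was lost without high-dose mouse 16 or 17 (limma adjusted p = 0.0584 and 0.0721). Prf1, which encodes perforin, changed by -0.41 ± 0.11 at the high dose (limma adjusted p = 0.0409), under the fold limit. Gzmb and Ifng did not pass, at -0.44 ± 0.17 and -0.21 ± 0.09.

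Of 9 transcription factors, 1 was called. Nfil3, which natural killer cells need for their development and which is also a repressor in the circadian clock, fell at all 3 doses, with log2 fold changes of -0.72 ± 0.11, -0.81 ± 0.11 and -0.82 ± 0.11 (SE, limma adjusted p = 0.00719, 0.000175 and 0.000177). Its ratio was -1.37, -1.10 and -0.93 (lowest, median, highest) in the vehicle mice and -2.09, -2.02 and -1.81 in the high-dose mice. Eomes and Tbx21, the T-box factors of natural killer cells, were at -0.50 ± 0.17 and -0.47 ± 0.16 at the high dose and did not pass the test there (limma adjusted p = 0.104 and 0.101). At the medium dose Tbx21 was at -0.55 ± 0.15 (limma adjusted p = 0.0383), under the fold limit. With median centring in place of loess, Gzma, Ccl5, Ccl4, Klra16 and Nfil3 kept their direction and were not called (limma adjusted p between 0.175 and 0.772 at the high dose). Averaged over its probes, Klra16 was at -0.57, under the fold limit.

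The adaptors and the ligands showed no calls by limma at any dose. Of 16 adaptor and signalling genes, 2 had an unadjusted p under 0.05 at the high dose and 4 at the medium dose, and the high-dose median of the 16 was 0.02. Tyrobp (DAP12), through which Ly49D and Ly49H signal, was at 0.28 ± 0.18 (SE) and Hcst (DAP10) at 0.00 ± 0.16. Of 11 ligand genes, 0 had an unadjusted p under 0.05 at the high dose and 2 at the medium dose. The class I genes H2-K1 and H2-D1 were at -0.07 ± 0.09 and 0.04 ± 0.08 there, and H2-T23, which encodes the ligand of the CD94/NKG2A pair, was at -0.03 ± 0.10. At the medium dose H2-D1 and H2-T23 were at 0.26 ± 0.08 and 0.26 ± 0.10 (limma adjusted p = 0.0776 and 0.154). Of 16 other surface molecules, 0 were called and 3 had an unadjusted p under 0.05 at the high dose, with a median of -0.02.

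**Figure D4:**
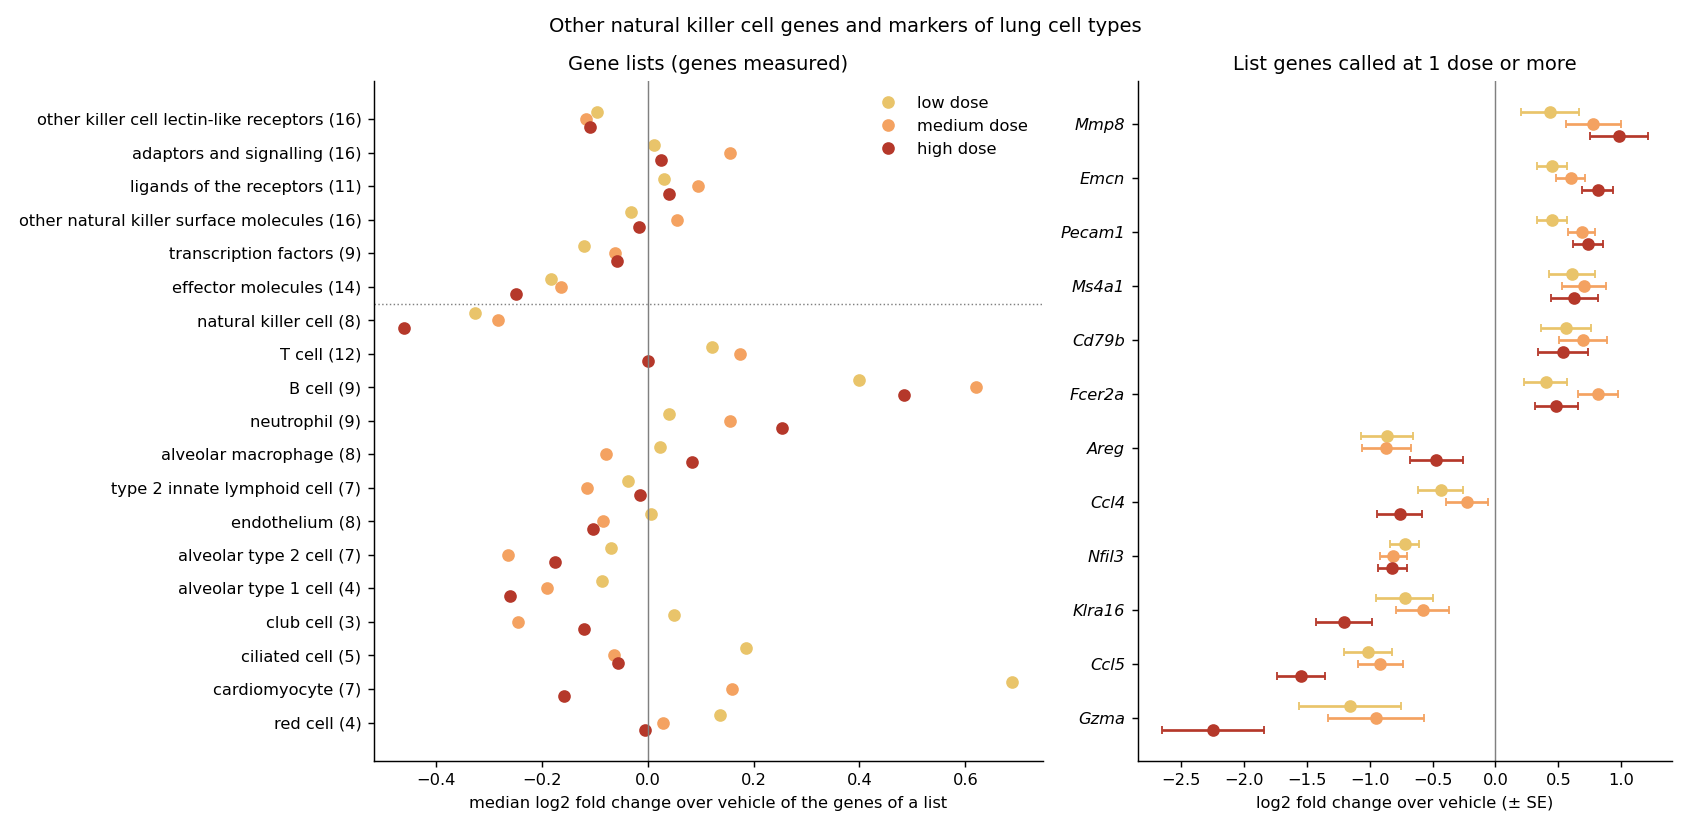
Left, median log2 fold change over vehicle of the measured genes (number in brackets) of 6 lists of natural killer cell genes (above the dotted line) and 13 marker lists of cell types, at 3 doses; right, log2 fold change with SE of the list genes called at 1 dose or more. The natural killer cell markers, 4 of whose 8 genes are among the receptors chosen by dose, have a high-dose median of -0.46, T cell markers one of 0.00 and B cell markers one of 0.48.

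Markers of natural killer cells were below 0 in 8 of 8 genes at each dose, 4 of which are among the 10 receptors, with a median of -0.46 at the high dose, where 1 of the 8, Gzma, was called. Since 4 were chosen by the dose results, nothing is read from this count. The mean level of these 8 markers ran from -0.50 to 0.39 over the vehicle mice and from -0.83 to -0.49 over the high-dose mice. All 8 were detected on some array. Of the T cell markers, 0 of 12 were called at any dose by limma, 2 had an unadjusted p under 0.05 at the high dose, and their median there was 0.00. The mean level of the T cell list ran from -0.19 to 0.16 in the vehicle and from -0.08 to 0.16 in the high-dose mice, and Cd3e, Cd8a and Cd4 were at -0.19 ± 0.13, 0.21 ± 0.10 and -0.26 ± 0.09 at the high dose. Of 9 B cell markers, 3 were called higher at the medium dose. By limma 0 were called at the low dose, where 6 had an unadjusted p under 0.05, and 0 at the high dose, where 7 did. The 3 were Ms4a1, Cd79b and Fcer2a (higher by 0.70 ± 0.17, 0.70 ± 0.19 and 0.81 ± 0.16, limma adjusted p = 0.0258, 0.0419 and 0.00559). Without vehicle mouse 3 or 4, or medium-dose mouse 12 or 14, Ms4a1 and Cd79b were not called, and Cd79b was also not called without vehicle mouse 5, low-dose mouse 9 or medium-dose mouse 13 or 15. The mean B cell level ran from -0.44 to 0.37 in the vehicle and from 0.27 to 0.56 in the high-dose mice.

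Of the other cell type lists, the endothelial markers Emcn and Pecam1 were higher at the high dose, by 0.81 ± 0.12 and 0.74 ± 0.12 (limma adjusted p = 0.000323 and 0.000597). The median of the 8 endothelial markers was -0.10, and 5 of the 8 were below 0. Among these Kdr was at -0.38 ± 0.09 (limma adjusted p = 0.0168), under the fold limit. The neutrophil gene Mmp8 was higher by 0.98 ± 0.23 at the high dose (limma adjusted p = 0.0157), and was not called without high-dose mouse 16 or 17. Areg, in the list of type 2 innate lymphoid cells, was lower at the medium dose, with a log2 fold change of -0.87 ± 0.20 (limma adjusted p = 0.0152). Markers of heart muscle, which a lung sample can carry over, varied widely between mice of 1 group, from -1.89 to 1.45 in the vehicle mice, with 0 of 7 called. The part of these other cells in the receptor values was not tested.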

How the data were processed

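The authors deposited the scanner output (Feature Extraction 11.0.1.1, per the file headers) with median intensities of both channels, neither background-subtracted nor normalized, and a log10 ratio that the software had background-subtracted and dye-normalized. They also deposited a table of log2 ratios, whose scale and direction (Cy5 over Cy3) were found by comparison with the scanner values. Its array medians lay between -0.03 and -0.02, and its centring is not stated.

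From the median intensities, log2 ratios were computed without background subtraction and normalized by loess within each array, with outlier spots (215 to 307 per array) and control spots at weight 0, in R 4.3.3 with limma 3.58.1. Spots of 1 probe were averaged, and a gene is represented by its brightest probe. The 4 groups were fitted together. P-values were adjusted by Benjamini-Hochberg over 55681 probes in each comparison, and a probe was called at adjusted p of at most 0.05 and fold change of at least 1.5. The study used MAANOVA, for which limma stands in. Genes were named through RefSeq accessions (27235 probes).

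The receptor genes, the gene lists and the tests were chosen with earlier results of these data known. Named were all receptor genes, up to 4 called genes of each list by size at the high dose, and the 8 and 5 genes most correlated with the receptor profile. Prf1, Gzmb, Ifng, Eomes, Tbx21, Tyrobp, Hcst, H2-K1, H2-D1, H2-T23, Cd3e, Cd8a, Cd4 and Kdr were added after their values were seen. Alternatives were normexp, the scanner ratios, the authors' table, median centring, scale and Aquantile normalization, Cy5 alone, slide as a block, detected probes only, the groups compared only, the mean of all probes, no fold limit, each mouse left out, and each slide alone. The fit was tested on simulated data. Between 51.5% and 61.1% of probes were well above background in Cy5; the number of arrays limits the precision. Array column on the slide followed dose and cannot be told apart from it.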

Additional observations from a re-analysis of the deposited data

Results flagged for a closer look

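Of 40 sets of values (10 receptor genes in 4 groups), 2 held a mouse that lay far from the others of its group, and chance gives about 1 in 20. Klrd1 was at a log2 ratio of 0.76 in low-dose mouse 9, against 1.35 to 1.47 in the other 3 low-dose mice. Mouse 9 was the 1 low-dose mouse on slide 2, which lay -0.66 from slide 1 for Klrd1. Ncr1 was at 0.65 in low-dose mouse 10, against 0.26 to 0.32 in the other 3.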

How the results depend on the processing

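No paired analysis was possible because the mouse numbers differ between the groups, so the groups share no replicate number, and the slide was fitted as a block instead. Klra4 remained called at the high dose under every alternative with a test except median centring, and its fold change ran from -1.41 to -1.12 when single mice were left out. With median centring 0 receptor genes, 0 other natural killer genes and 0 cell type markers were called at any dose, against 670 and 80 probes called in all at the high dose with loess and with centring. With the scanner software's ratios 2 receptor genes (Klra4 and Klre1), among 1075 of 55681 probes, were called at the high dose. The medians of the receptor genes were -1.06 there and -0.61 between the high and the low dose. With the same ratios 1 other natural killer gene was called at the low dose, and 3 cell type markers at the medium dose. With scale normalization these were 1 natural killer gene at the low dose and 5 cell type markers at the high dose, with Cy5 alone 1 natural killer gene at the low dose and 4 cell type markers at the medium dose, and with only the groups compared 1 natural killer gene at the low dose. With the slide as a block the medium dose had 1 receptor gene called, among 442 probes, and the high dose 2, among 702 probes. Without a fold limit 3 receptor genes and 6 cell type markers passed at the high dose, where 2325 probes passed in all. On slide 3 by itself, with 1 mouse per group, the high-dose median was -0.77. When single mice were left out, the receptor genes called ranged from 0 to 1 (medium dose) and from 1 to 3 (high dose), the other natural killer genes called from 1 to 2, from 2 to 4 and from 4 to 8 at the low, medium and high dose, and the cell type markers from 3 to 9 at the medium dose. The cause of these differences was not tested. The Aquantile step leaves the ratios unchanged by construction. The dim probes of Klrc1, Klre1 and Klrk1 limit what can be said of those genes.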
